A study of Mus musculus with 16 samples.

Results

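In tumours that lacked both Sufu and Spop, 550 Gli2 binding sites lay outside every called region of the active histone mark H3K27ac and had no Gli2 peak in SmoM2 tumours. They were chosen by overlap between called regions, and so depend on the caller's thresholds. They are Gli2 peaks of the double knockout (DKO) on chromosomes 1 to 19, X and Y. None shared a base with a SmoM2 Gli2 peak or with an H3K27ac region of either genotype. They made up 550 of the 1426 DKO Gli2 peaks (38.6%), and 550 of the 1341 peaks called for Gli2 in DKO tumours only (41.0%, 38.4–43.7%). The SmoM2 list held only 148 Gli2 peaks, and with the DKO list shortened to that length, 23 sites stayed. Shares carry Wilson 95% intervals, which reflect counting error alone. That a list lacks a site says only that the caller made no call, and binding or acetylation under its threshold may be present.

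The tumours were mouse medulloblastomas, tumours of the cerebellum, taken at postnatal day 13. One genotype was a Sufu;Spop double knockout, and it is set against mice that overexpressed SmoM2, a constitutively active form of Smoothened. Chromatin immunoprecipitation and sequencing (ChIP-seq) with antibodies to Gli2, H3K27ac and H3K36me3 gave 2 libraries for each genotype and antibody, besides 2 input libraries for each genotype. The labels used here name no promoter or Cre line for either genotype, and do not say whether paired libraries came from separate animals. Each pair of ChIP libraries is represented by 1 deposited peak list, so differences between genotypes could not be checked against replicates, and sequencing depth is unknown. All positions are on mouse build mm9. No annotation or genome of that build was used, so genes at these positions are not named and no site sequence is shown.

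Gli2 is a zinc finger transcription factor that carries the Hedgehog signal to its target genes. Smoothened passes the signal on from the cell surface, Sufu holds Gli proteins back, and Spop brings Gli proteins to the Cul3 ubiquitin ligase. Hedgehog signalling drives division of granule neuron progenitors in the cerebellum and drives one class of medulloblastoma. H3K27ac is an acetylated histone carried by nucleosomes at active promoters and enhancers, commonly on the nucleosomes to either side of DNA bound by a factor. H3K36me3 lies along the bodies of genes that are being transcribed.

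By the limits of the rule, the sites were divided into a near, a middle and a far group. The gap to the closest H3K27ac region of either genotype was under 1 kb for 250 sites (45.5%, 41.3–49.6%), 1 to 10 kb for 86 sites (15.6%, 12.8–18.9%) and over 10 kb for 214 sites (38.9%, 34.9–43.0%). On a log scale, few gaps fell around the 1 kb limit, with 12 sites at 500 to 1000 bp and 14 at 1 to 2 kb. The shortest gaps were many, with 89 under 100 bp and 84 at 100 to 200 bp. Around the 10 kb limit there were 25 sites at 2 to 5 kb, 47 at 5 to 10 kb, 48 at 10 to 20 kb and 81 at 20 to 50 kb. These ranges widen with distance, so the counts are not densities per base and do not show a natural break at either limit. Of all sites, 217 (39.5%) were less than 300 bp from H3K27ac. At the far end, 85 sites (15.5%) were at least 50 kb away and 47 (8.55%) at least 100 kb. Called H3K27ac was therefore absent from the bases of each peak, but not from the surrounding kilobase of the near group. These distances follow from the rule that chose the sites and are given as a description. Among Gli2 peaks with a −log10 q of at least 10 there were 344 such sites, and 312 when H3K27ac within 500 bp counted as overlap. With only H3K27ac regions of −log10 q of at least 2, the near share was 34.4% and the far share 51.0%, so which of the groups was larger depended on that threshold.

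**Figure D1:**
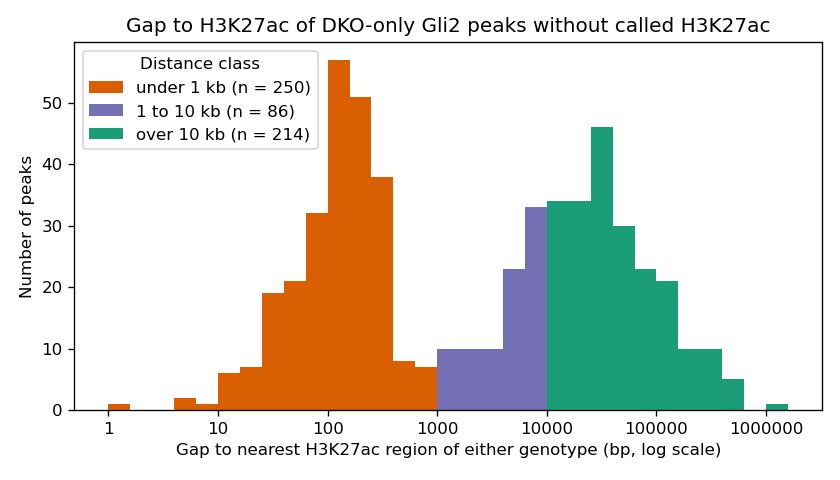
Number of DKO-only Gli2 peaks without called H3K27ac by the gap to the nearest H3K27ac region of either genotype, in bp on a log scale. Of the 250 sites under 1 kb, 217 lie under 300 bp, and on this scale few sites lie between 500 bp and 2 kb. Bars at longer gaps span more bases, so their heights are not densities per base.

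At the limits of the rule, the fold enrichments of the 3 closest peaks on either side overlapped in range. So few peaks cannot show whether the limit separates unlike peaks. The site nearest to H3K27ac was on chromosome 5 at 112956124–112956264, 55 bp from a DKO region and 1 bp from a SmoM2 region. Next were chromosome 4 at 117519851–117519993, 4 bp from a SmoM2 region, and chromosome 2 at 84026385–84026537, 6 bp from a DKO region. The DKO-only peaks with the smallest overlap shared 3 bp (chromosome 17 at 24666184–24666309), 5 bp (chromosome 7 at 87586996–87587111) and 6 bp (chromosome 14 at 75326767–75326916) with an H3K27ac region. The authors' fold enrichment over the caller's background was 6.96, 9.13 and 11.7 for the 3 peaks just outside H3K27ac and 6.52, 6.09 and 9.83 for the 3 just inside. Of the 791 acetylated DKO-only peaks, 713 (90.1%) lay wholly inside a region, and 46 (5.82%) had their summit outside it.

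Around the limits between groups, the fold ranges of the few sites named on either side overlapped as well. Gaps of 905 bp (chromosome 3 at 53363069–53363199, fold 7.83) and 914 bp (chromosome 17 at 27379823–27380087, fold 10.2) were the largest in the near group. Gaps of 1023 bp (chromosome Y at 1312841–1312960, fold 2.11) and 1050 bp (chromosome 14 at 75854648–75854794, fold 12.3) were the smallest in the middle group. At the outer limit, the gap was 9828 bp on chromosome 12 at 88213323–88213441 (fold 5.65) and 9878 bp on chromosome 5 at 36722846–36723002 (fold 8.80). Just beyond it, the gap was 10001 bp on chromosome 8 at 19710360–19710486 (fold 5.76) and 10265 bp on chromosome 15 at 96434790–96434943 (fold 9.57).

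Many sites of the near group sat in a narrow interruption of called H3K27ac. With the regions of both lists pooled, 107 of the 250 (42.8%, 36.8–49.0%) had H3K27ac within 1 kb on both sides, and 143 had it on one side. In the DKO list alone, 86 had a region within 1 kb on both sides and 122 on one side. In the SmoM2 list alone, 49 had it on both sides and 118 on one side. The same 34 sites were flanked on both sides in each list, 52 in the DKO list only and 15 in the SmoM2 list only. Within 500 bp, 93 sites were flanked on both sides by regions of either list. Joining regions at most 1 kb apart left 14 flanked sites, since it fills short interruptions.

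The interruptions around flanked sites had similar median sizes in both lists, which have 34 of these sites in common. The flanking regions stood a median of 594 bp apart in the DKO list (416–1666 bp, n = 86) and 593 bp apart in the SmoM2 list (481–1188 bp, n = 49). The closer flank was a median of 108 bp from the edge of the Gli2 peak in the DKO list and 127 bp in the SmoM2 list, and the farther flank 267 and 273 bp. Measured from whichever flank was nearer to it, the Gli2 summit lay a median of 34.2% of the way across in the DKO list. In the SmoM2 list it lay 38.3% of the way across. This measure cannot exceed 50%, the middle, so a median under 50% does not show that summits lay off centre. No 2 neighbouring regions were closer than 413 bp in the DKO list or 481 bp in the SmoM2 list, so shorter interruptions were not recorded in these lists.

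Gli2 peaks took up a small part of such interruptions. The DKO list held 6175 gaps of under 2 kb between neighbouring H3K27ac regions (median 640 bp), and 136 of them contained a whole DKO Gli2 peak. Of the 137 peaks in these gaps, 90 were among the 550 sites and 42 were DKO-only peaks acetylated in SmoM2 tumours. The SmoM2 list held 3681 such gaps (median 719 bp), with 106 peaks inside, 54 of them among the 550 sites and 46 DKO-only peaks acetylated in DKO tumours. Sites acetylated in one genotype thus also lay beside H3K27ac of the other. Of the 96 DKO-only peaks acetylated in SmoM2 tumours only, 76 (79.2%) had a DKO region within 1 kb, 42 of them on both sides. Of the 157 acetylated in DKO tumours only, 106 (67.5%) had a SmoM2 region within 1 kb, 43 of them on both sides.

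**Figure D2:**
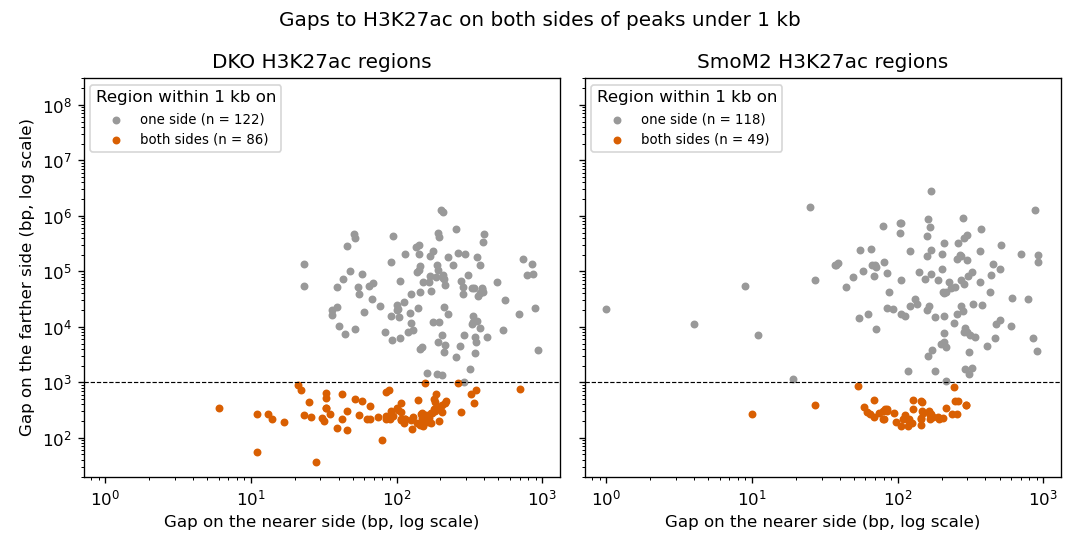
Gap to H3K27ac on the nearer side against the farther side, in bp on log scales, for sites of the near group with a region within 1 kb in the DKO list (left) or the SmoM2 list (right). Points below the dashed line at 1 kb have H3K27ac on both sides, 86 in the DKO list and 49 in the SmoM2 list.

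The near group was defined by an uncovered peak with H3K27ac within 1 kb, so a bare centre with cover beside it follows from the rule, and the cover around the summits is given as a description. At 200 bp from the summit, 14.6% of positions were inside a DKO region and 10.4% inside a SmoM2 region, as means over both sides. Cover was highest 450 bp from the summit in the DKO list (42.8%) and 400 bp from it in the SmoM2 list (29.2%). It fell off with distance, to 17.4% and 12.8% at 1 kb and 3.80% and 2.60% at 5 kb. DKO-only peaks acetylated in both genotypes, whose cover at the peak is likewise set by their definition, had 94.8% of summits inside a DKO region and 92.8% inside a SmoM2 region. Their cover farther out was 67.3% in DKO and 59.8% in SmoM2 regions at 1 kb and 22.6% and 16.9% at 5 kb. DKO-only peaks acetylated in one genotype had 53.4% of summits in DKO regions against 60.9% at 350 bp, and 33.2% in SmoM2 regions against 46.4% at 400 bp.

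H3K27ac beside these sites was called at a larger number of them in DKO than in SmoM2 tumours. Among the 250 sites of the near group, 208 (83.2%, 78.1–87.3%) had a DKO region within 1 kb and 167 (66.8%, 60.7–72.3%) a SmoM2 region. Both genotypes had one at 125 sites, DKO tumours only at 83 and SmoM2 tumours only at 42. DKO tumours had 29504 called regions in all, against 21630 in SmoM2 tumours, and the part of this difference in list length was not tested. Among the 86 sites of the middle group, 68 (79.1%, 69.3–86.3%) had a DKO region within 10 kb and 53 (61.6%, 51.1–71.2%) a SmoM2 region.

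The regions beside the near group were narrower by median than their lists and had a similar −log10 q. The 206 DKO regions closest to these sites had a median width of 415 bp and a median −log10 q of 2.50, beside 483 bp and 2.62 over all DKO regions. The 166 SmoM2 regions had 402 bp and 2.21, beside 523 bp and 2.43 over all SmoM2 regions. Of the 206 DKO regions, 109 (52.9%, 46.1–59.6%) overlapped a SmoM2 region, beside 52.7% of the whole DKO list. Of the 166 SmoM2 regions, 118 (71.1%, 63.8–77.4%) overlapped a DKO region, beside 73.4% of the whole SmoM2 list.

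Called H3K27ac in the wider surroundings followed the distance groups, in part by their definition. Within 50 kb on each side of the summit, sites of the near group had a median of 1.81 kb of DKO and 1.08 kb of SmoM2 H3K27ac. The medians were 0.922 kb of DKO and 0.539 kb of SmoM2 H3K27ac in the middle group, and 0.131 kb and 0 kb in the far group. In the same window, DKO-only peaks acetylated in one genotype had 4.01 kb of DKO and 2.73 kb of SmoM2 H3K27ac, and those acetylated in both had 8.92 kb and 7.22 kb, part of which is the region at the peak. In the far group, 96 of 214 sites (44.9%) had no DKO region and 118 (55.1%) no SmoM2 region within 50 kb. The sites farthest from H3K27ac were on chromosome 5 at 12354914–12355051, 1627 kb from a DKO and 1066 kb from a SmoM2 region, on chromosome 13 at 16751807–16751933, 900 kb from a DKO and 556 kb from a SmoM2 region, and on chromosome 12 at 18371109–18371249, 449 kb from a DKO and 551 kb from a SmoM2 region. These 3 had low fold enrichments of 3.81, 6.52 and 4.05.

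The sites had a lower median fold enrichment than the DKO list as a whole, but some were strong. The authors' fold enrichment ran from 2.11 to 28.7 with a median of 8.59 (8.26–9.04, exact binomial interval of the median). It had a median of 9.57 (9.13–9.89) over all 1426 DKO peaks and 9.13 (9.08–9.57) over all 1341 DKO-only peaks. The median was 9.46 (8.70–10.0) in the near group, 7.83 (6.96–8.70) in the middle group and 7.83 (7.56–8.57) in the far group. It was 9.13 (8.38–10.0) for DKO-only peaks acetylated in one genotype, 10.0 (9.57–10.5) for those acetylated in both and 18.7 (16.1–23.1) for the 85 peaks called for Gli2 in both genotypes. The interval of the near group overlapped those of both acetylated classes. The interval of the far group overlapped that of peaks acetylated in one genotype but not that of peaks acetylated in both. No test was made over peaks, which share 1 list. Within the near group, the median was 10.4 (9.04–11.6) for the 107 sites flanked on both sides and 8.70 (8.46–9.62) for the 143 flanked on one side.

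The median width was 158 bp (153–166) in the near group, 154 bp (143–163) in the middle group and 147 bp (141–153) in the far group, beside 168 bp (159–181) for peaks acetylated in one genotype, 174 bp (167–180) for those acetylated in both and 165 bp over all DKO peaks.

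**Figure D3:**
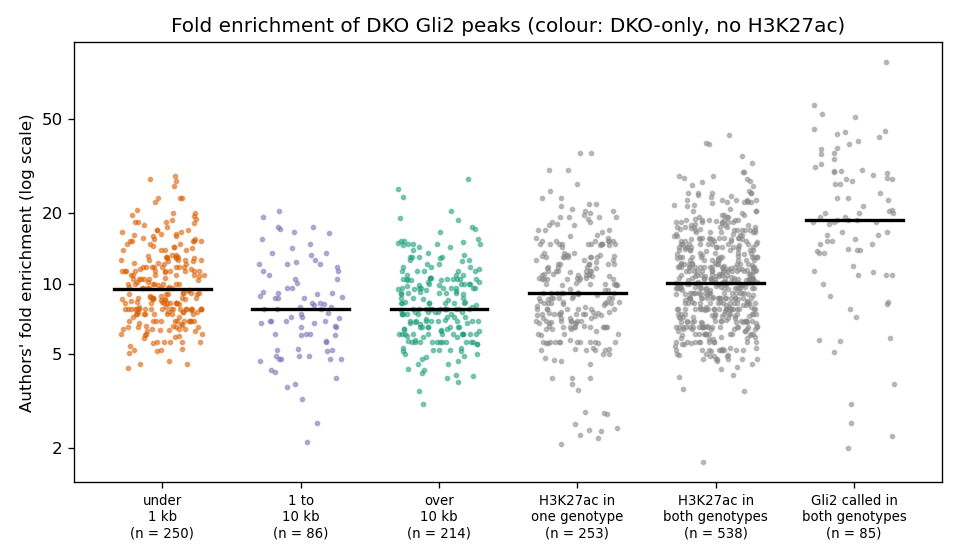
The authors' fold enrichment on a log scale for each DKO Gli2 peak, with the median of each class as a black line. The coloured DKO-only peaks without H3K27ac have medians of 9.46 (under 1 kb), 7.83 (1 to 10 kb) and 7.83 (over 10 kb), and the grey classes have medians of 9.13, 10.0 and 18.7.

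By rank, 0 of the 20 leading DKO peaks by −log10 q were among these sites, against 14 of the leading 101. The rule leaves out the 85 peaks called in both genotypes, whose median −log10 q was 44.5, beside 14.5 over all DKO-only peaks. Low counts among the leading peaks thus follow in part from the rule. With the DKO list divided by −log10 q into 10 parts, the sites made up 23 of 143 peaks in the highest part (16.1%, 11–23.0%), 39 of 143 in the next (27.3%, 20.6–35.1%) and 66 of 142 in the lowest (46.5%, 38.5–54.7%). In the highest part, 15 of the 23 were from the near group and 6 from the far group. In the lowest part, 13 of the 66 were from the near group and 35 from the far group. Sites over 10 kb from H3K27ac were therefore found mainly among the weaker peaks, without being limited to them.

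The 5 sites of the near group with the highest −log10 q were all on chromosome 7. The peak at 17503381–17503747 had a fold enrichment of 28.7 and a −log10 q of 79.8, which ranked it 40 in the DKO list. It lay 145 bp from a DKO and 205 bp from a SmoM2 H3K27ac region, and 171 of its 367 bases were in a SmoM2 H3K36me3 region. The peak at 103945610–103946034 (fold 27.8) was flanked on both sides in both genotypes, by DKO regions at 161 and 223 bp and by SmoM2 regions at 109 and 214 bp. The peak at 152383112–152383403 (fold 17.5) was flanked likewise, by DKO regions at 63 and 221 bp and by SmoM2 regions at 192 and 214 bp. The peak at 120027305–120027640 (fold 27.4) was flanked on both sides by SmoM2 regions, at 204 and 229 bp, while the closest DKO region was 14.8 kb away. The peak at 80270761–80270970 (fold 26.1) was at an edge, with H3K27ac on one side, 215 bp away in DKO and 284 bp away in SmoM2 tumours. It was 74.0 kb from a SmoM2 Gli2 peak, whereas the other 4 were at least 7.47 Mb from one.

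The highest sites of the middle group were closer to DKO than to SmoM2 regions. The first, on chromosome 6 at 48432579–48432830 (fold 20.4, rank 106), was 6.69 kb from a DKO and 37.1 kb from a SmoM2 region. The next, on chromosome 7 at 108608984–108609349 (fold 19.1), was 1.25 kb from a DKO and 149 kb from a SmoM2 region. Chromosome 10 at 69995077–69995291 (fold 17.0) was 2.09 kb from a DKO and 11.2 kb from a SmoM2 region. The same held for chromosome 11 at 117343944–117344285, with 3.59 kb to DKO and 40.0 kb to SmoM2 H3K27ac. It also held for the site on chromosome 10 at 13145030–13145264, with 4.33 kb to DKO and 127 kb to SmoM2 H3K27ac.

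In the far group, the 5 highest Gli2 peaks had no called H3K27ac for 21.3 kb or more. Chromosome 12 at 41204402–41204622 had a fold enrichment of 27.8 (rank 44) and was 21.3 kb from the closest region of either genotype. Chromosome 11 at 57414355–57414699 had a fold of 25.4 (rank 48) and was 44.0 kb from a DKO and 81.9 kb from a SmoM2 region. Chromosome 15 at 74048194–74048630 (fold 23.5) was 253 kb from a DKO and 255 kb from a SmoM2 region. Their fold enrichments lay in the range of the 5 highest near sites (17.5 to 28.7). Chromosome 6 at 84517757–84517982 (fold 19.1) was 339 kb from a DKO and 178 kb from a SmoM2 region. Chromosome 1 at 122104217–122104363 (fold 20.4) was 85.8 kb from a DKO and 85.9 kb from a SmoM2 region. None of the 5 overlapped H3K36me3, and the closest SmoM2 Gli2 peak was 0.733 to 14 Mb away.

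The number of fragments behind each peak sets how firm its fold is. Fragments at the summit and the caller's local background follow from the authors' fold and −log10 p, and whole fragment numbers solved both for all 1426 peaks. A median of 21 fragments (range 9 to 95) lay under the summits of the 550 sites, beside 23 over all DKO peaks. Fewer than 20 fragments lay under 243 sites (44.2%), beside 502 of all 1426 DKO peaks (35.2%). The far group had a median of 19 and the near group of 23. For the strongest site of the near group, 65 fragments (50.2–82.8, exact Poisson 95% interval) over a background of 1.3 give a fold of 22.3–36.5. For the strongest of the far group, 63 fragments (48.4–80.6) give 21.5–35.5. A typical site of 21 fragments, chromosome 15 at 96434790–96434943, has a fold of 9.57 with an interval of 6.09–14.4, which spans the medians of all 3 groups and of the acetylated DKO-only peaks.

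The local background was low at nearly all sites. It stood at the lowest value of the list, 1.3 fragments, at 289 sites (52.5%, 48.4–56.7%), beside 53.3% of all DKO peaks. It was over 3 times that value at 9 sites (1.64%), beside 2.17% of all DKO peaks, with 5 of the 9 in the far group, 4 in the middle group and 0 of 250 in the near group. The 3 highest backgrounds were those of the 3 sites on chromosome Y. There, 1312841–1312960 held 95 fragments over 44.4 (fold 2.11), 1316823–1316938 held 59 over 22.5 (fold 2.56) and 2785404–2785541 held 68 over 20.3 (fold 3.24). All 3 were in the middle group and lay 5.35 to 50.9 kb from a SmoM2 Gli2 peak. The strongest site with a high background was on chromosome 12 at 108806289–108806496, with 64 fragments over 4.39 and a fold of 12.1.

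H3K36me3, which the rule did not use, covered few of the sites. In DKO tumours 6 of 550 sites (1.09%, 0.501–2.36%) overlapped an H3K36me3 region, beside 2.31% of all DKO Gli2 peaks. In SmoM2 tumours 9 of 550 did (1.64%, 0.863–3.08%), beside 2.66% of all DKO Gli2 peaks. Among the 791 acetylated DKO-only peaks the shares were 2.91% (1.95–4.33%) in DKO and 3.03% (2.05–4.47%) in SmoM2 regions. The intervals of sites with and without H3K27ac overlap. The middle group had 0 of 86 sites in H3K36me3 of either genotype, which allows up to 4.28% by the Wilson interval.

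The 5 sites inside H3K36me3 of both genotypes were modest peaks. They were chromosome 9 at 119835029–119835184 (fold 11.3) and chromosome 3 at 108479706–108479859 (9.09) in the near group. The others, in the far group, were chromosome 15 at 94179547–94179666 (5.65), chromosome 13 at 68585885–68586032 (5.01) and chromosome 2 at 31840740–31840856 (4.54). The one on chromosome 3 lay 39 bp from a DKO H3K27ac region and 22.6 kb from a SmoM2 one.

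A smaller share of these sites than of acetylated peaks lay near H3K36me3, with intervals that do not overlap. Within 10 kb of a DKO H3K36me3 region lay 134 of the 550 sites (24.4%, 21–28.1%), beside 41.2% of all DKO Gli2 peaks. The share was 38.3% (32.6–44.5%) of DKO-only peaks acetylated in one genotype and 58.7% (54.5–62.8%) of those acetylated in both. For SmoM2 regions the count was 133 of 550 (24.2%, 20.8–27.9%), beside 40.5% of all DKO Gli2 peaks, 38.7% (32.9–44.9%) of those acetylated in one genotype and 56.9% (52.7–61.0%) of those acetylated in both. By distance, the share was 30.0% (24.7–35.9%) in the near group, 25.6% (17.5–35.7%) in the middle group and 17.3% (12.8–22.9%) in the far group for DKO regions, and 28.4%, 30.2% and 16.8% for SmoM2 regions. The intervals of the near and of the middle group overlapped that of peaks acetylated in one genotype, for DKO and for SmoM2 regions. For the near group, the median gap to H3K36me3 was 35 kb to DKO regions and 39.5 kb to SmoM2 regions. For the far group, it was 66.8 kb to DKO regions and 63.5 kb to SmoM2 regions.

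Most of the sites had no other Gli2 peak nearby. Another DKO Gli2 peak lay within 10 kb of 50 of the 550 (9.09%, 6.96–11.8%), beside 20.3% of all DKO Gli2 peaks. The share was 13.8% (10.1–18.6%) of DKO-only peaks acetylated in one genotype, with an interval that overlaps that of the sites, and 33.3% (29.4–37.4%) of those acetylated in both. Within the sites, 34 had another of the 550 within 10 kb, as 14 pairs and 2 groups of 3. The group on chromosome 2 at 166172152–166179220 had fold enrichments of 13.5, 8.16 and 12.3, with the first site 6.24 kb and the others 846 and 276 bp from DKO H3K27ac. The group on chromosome 19 at 41754183–41764636 had 8.70, 6.96 and 10.9, with DKO H3K27ac at 4.41 kb, 33 bp and 39 bp, while the closest SmoM2 H3K27ac was 94.9 kb away. The median gap to the closest of the 148 SmoM2 Gli2 peaks was 5.24 Mb for the sites, beside 4.70 Mb for DKO-only peaks acetylated in one genotype and 3.02 Mb for those acetylated in both.

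By chromosome, the sites made up between 23.0% and 54.5% of the DKO Gli2 peaks on the autosomes. The share was high on chromosome 15 (30 of 55, 54.5%, 41.5–67.0%) and chromosome 12 (36 of 71, 50.7%, 39.3–62.0%), and low on chromosome 13 (14 of 61, 23.0%, 14.2–34.9%), chromosome 8 (27 of 112, 24.1%, 17.1–32.8%) and chromosome 11 (27 of 108, 25%, 17.8–33.9%). Chromosomes 15 and 12 held 16 and 21 far sites, against 8 and 11 near ones, whereas chromosomes 8 and 1 held 7 and 14 far sites against 17 and 22 near ones. Chromosome 4 had the most sites, 52 of 117 peaks. On chromosome X, 9 of 12 DKO Gli2 peaks (75%, 46.8–91.1%) were among the sites, and on chromosome Y 3 of 17 (17.6%, 6.19–41.0%).

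**Figure D4:**
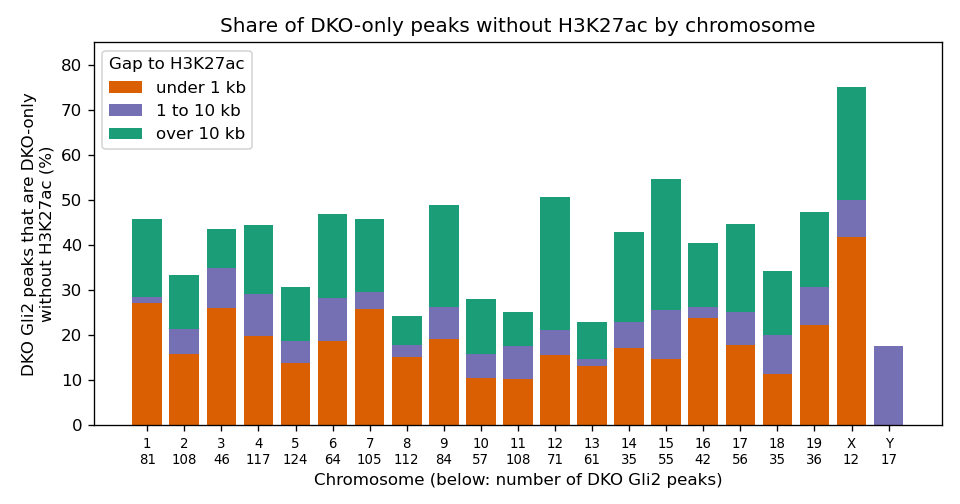
Percent of the DKO Gli2 peaks of each chromosome that were DKO-only without called H3K27ac, split by the gap to H3K27ac, with the number of DKO Gli2 peaks under each name. Autosomes range from 23.0% (chromosome 13) to 54.5% (chromosome 15), and chromosomes X and Y rest on 12 and 17 peaks.

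The same reading of Gli2 peaks elsewhere gave other proportions. Of the 85 DKO peaks also called in SmoM2 tumours, 11 (12.9%, 7.38–21.7%) overlapped no H3K27ac, 5 of them under 1 kb and 5 over 10 kb from it. Of the 63 Gli2 peaks called in SmoM2 tumours only, 36 (57.1%, 44.9–68.6%) overlapped no H3K27ac of either genotype. The near share was 45.5% (41.3–49.6%) of the 550 DKO-only sites, against 6 of these 36 SmoM2-only peaks (16.7%, 7.87–31.9%). The far share was 38.9% (34.9–43.0%) of the DKO-only sites, against 24 of the 36 (66.7%, 50.3–79.8%). The intervals do not overlap in either case, and the SmoM2-only peaks came from a list of 148. These intervals reflect the counting of peaks in 1 list per genotype, not replicates, so they do not establish a difference between genotypes.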

How the data were processed

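Genotype and antibody, as labelled, set the groups of the 16 libraries, and 1 deposited list covers both libraries of a ChIP group. The submitters' processing notes name build mm9 and the tools MACS2, bedtools, BWA and Trimmomatic 0.36. Their roles and settings, the use of input and how replicates were merged are not stated in the labels. A SmoM2 Gli2 peak on the mitochondrial sequence was left out. The labels' protocol also names an Olig2 antibody on the beads, so lists are named by the antibody given for each sample. Other columns the authors deposited hold start, end and, for Gli2, the summit. The authors' fold enrichment, a ratio, relates each summit to the caller's background. The authors gave p and q values as −log10. The deposited score, a whole number, was within 1 of 10 times −log10 q. These values describe and rank peaks within 1 list.

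Overlap meant at least 1 shared base, and a gap was the number of bases between 2 regions. For recovered fragments, fold was (fragments + 1) over (background + 1), and p was a Poisson upper tail. Whole fragments matched −log10 p within 0.01 for 1426 of 1426 peaks. A background within 0.005 fragments of the lowest counted as the lowest. On simulated data, 500 of 500 overlaps, 400 of 400 gaps and 400 of 400 fragment numbers came back. Intervals on fold hold the background fixed. No test was made over peaks.

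The sites and classes were chosen with earlier results of these data known. Named positions are the 5 highest by −log10 q in each distance class, those at the limits, with the highest background or farthest from H3K27ac, those in H3K36me3 of both genotypes and groups of at least 3. The highest site with a high background was named after its value was seen. Alternatives covered thresholds, overlap, joining, list length, chromosomes and background. The work used scipy 1.17.1, pandas 2.3.3, numpy 2.4.6 and matplotlib 3.10.9 under Python 3.11.15.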

Additional observations from a re-analysis of the deposited data

How the results depend on the processing

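No paired analysis was possible because the 2 libraries of a ChIP group share 1 list, which also kept single replicates from being left out. Under planned settings, 67 values stayed (shares and medians inside the reported interval, counts within 1.5 times) and 23 moved. Some of the 67 could not move. No site lay closer than 4.69 kb to a SmoM2 Gli2 peak, so counting a peak within 1 kb as shared changed nothing. The named sites with the highest −log10 q pass the cut-offs on it by their choice. A fall from 107 to 72 flanked sites, with H3K27ac regions of −log10 q of at least 2, also counted as having stayed. Both values under settings chosen after seeing the data stayed. Among Gli2 peaks with −log10 q of at least 10 there were 344 sites, 34.9% of them over 10 kb from H3K27ac, with a median fold enrichment of 10.8, and at least 5 gave a median of 9.09. When H3K27ac within 500 bp counted as overlap, 312 sites stayed, 68.6% of them over 10 kb away, with a median fold of 7.83. With H3K27ac regions of −log10 q of at least 2 only, 51.0% of sites were over 10 kb away, and with regions at most 1 kb apart joined, 46.8%. The share under 1 kb was 34.4% under each of these settings, so the far group was then the larger one. Joining left 457 sites, 14 of them flanked on both sides against 107 as reported, by its own construction. With the DKO list shortened to the length of the SmoM2 list, 23 sites stayed, 26.1% of them over 10 kb away, with a median fold of 20.7, 0% in DKO and 4.35% in SmoM2 H3K36me3. No cause of a move was tested. With 1 list per genotype and no read depth, no difference between genotypes has an error.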
